A study of Mus musculus with 17 samples.

Results

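The comparison set cardiac fibroblasts (CFs) from infarcted mouse hearts 4 days post-infarction (4 dpi) against CFs 2 days post-infarction (2 dpi), with 3 libraries on each day, 6 of the 17 libraries of the time course. The members are the autosomal genes measured in these libraries. All mice were C57BL/6 carrying the *Collagen1a1-GFP* reporter, were 8 to 10 weeks old and had undergone myocardial infarction (MI) by permanent ligation of the left anterior descending coronary artery. No healthy or sham group is among these libraries, so both groups share the reporter, the surgery and the age, and differ by label in the day alone. The reporter is driven by the *Col1a1* promoter and cells were sorted as GFP+/CD31-/CD45-, so that a library describes cells with that promoter active and not every fibroblast of the heart, and erythrocytes were lysed before the sort. Poly-A RNA was read from its 3′ ends by MARS-seq, and the deposited values are raw counts per gene. Of 29100 autosomal genes listed, 13558 had enough counts to be tested.

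After MI, resident CFs first respond to dying myocardium with chemokines and cytokines, then divide, and within days secrete the collagen and fibronectin that hold the infarct together. Cells that acquire contractile proteins such as smooth muscle α-actin are called myofibroblasts. Reparative cardiac fibroblasts (RCFs) are the state the study follows, marked by the secreted glycoprotein *Cthrc1* and named for their part in scar formation. The comparison asks which genes changed over the days in which the response turns from inflammation towards scar formation.

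Total counts were 17180039 to 18866820 at 2 dpi (median 17885151) and 8336263 to 18716767 at 4 dpi (median 17458386). The smallest total was that of 4 dpi replicate 3, which also stood apart in its counts. Its chi-square over degrees of freedom was 133.44 and 105.44 against replicates 1 and 2, compared with 23.03 between these and 53.77 to 63.45 among the 2 dpi libraries. The libraries also differed in genes that reveal the sex of the mice. *Xist*, expressed from the inactive X chromosome, was at 1.8 to 2.85 CPM (counts scaled to a common library size) in the 2 dpi libraries and at 141.55 to 196.81 CPM in the 4 dpi libraries, whereas 4 Y-linked genes together were at 61.22 to 71.5 CPM at 2 dpi and at 0.05 to 0.6 CPM at 4 dpi. Day and sex-linked pattern therefore cannot be told apart in this comparison, and this applies to each result below. Among the other days, 1 dpi replicate 1 and the 6 dpi libraries carried more *Xist* than Y-linked counts, and 1 dpi replicates 2 and 3 and the 3 and 5 dpi libraries the reverse. Values below are CPM on TMM-normalized library sizes, listed as replicates 1, 2 and 3. TMM scaling assumes that most genes do not differ. The median log2 fold change of autosomal genes was 0.01, but the scaling itself draws this value towards 0, so it cannot check that assumption. Replicates are described as biological in the study's methods. The p-values rest on the spread between libraries of the same day over all 17 libraries, not over these 6 alone. In bulk libraries, fewer cells of a kind and less RNA per cell cannot be told apart.

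The 10 fibroblast markers checked, among them *Col1a1*, *Col3a1*, *Dcn*, *Pdgfra* and *Tcf21*, summed to 22592 to 27717 CPM at 2 dpi and 28901 to 35051 CPM at 4 dpi, and none of the 10 passed the test. They were split by direction, 5 above 0 and 5 below, with a median log2 fold change of -0.14. In a fit of the 2 and 4 dpi libraries alone, *Col1a1* and *Col1a2* were called higher. *Col1a1* and *Col3a1* lay higher at 4 dpi and *Dcn* and *Pdgfra* lower, with values given below. The 10 endothelial markers summed to 45.3 to 65.0 CPM and 32.3 to 53.6 CPM, and the 15 macrophage and leukocyte markers to 14.5 to 35.2 CPM and 34.7 to 65.6 CPM. None of the leukocyte markers passed the test, 14 of 15 lay above 0 and their median log2 fold change was 1.63, whereas in the fit with a term for the sex-linked pattern, described below, 5 of 15 lay above 0 and the median was -1.01. *Pecam1*, which encodes CD31, was at 6.69, 12.8 and 2.6 CPM at 2 dpi and 0.779, 1.1 and 2.56 CPM at 4 dpi. *Ptprc*, which encodes CD45, was at 0 in 5 of the 6 libraries and at 0.13 CPM in 4 dpi replicate 1. The 6 neutrophil markers summed to at most 3.8 CPM, and 5 of 8 lymphocyte markers (*Cd3e*, *Cd3d*, *Cd3g*, *Ms4a1* and *Nkg7*) were at 0 in all 6 libraries. The 8 mesothelial and epicardial markers, at 30.5 to 209 CPM and 53.6 to 92.2 CPM, and the 6 Schwann cell markers, at 18.5 to 22.5 CPM and 11.9 to 17.1 CPM, had no member past the test. The markers of 3 other cell types did. The 12 cardiomyocyte markers summed to 17.8, 35.3 and 34.1 CPM at 2 dpi and to 65.7, 111 and 87.4 CPM at 4 dpi, with *Actc1*, *Tnnt2* and *Myl3* higher. The 7 mural cell markers summed to 61.3, 78.7 and 64.8 CPM and to 108, 137 and 169.6 CPM, with *Rgs5*, *Cspg4* and *Notch3* higher. The 5 erythroid markers summed to 18.6, 182 and 65.6 CPM and to 309, 787 and 2393 CPM, highest in 4 dpi replicate 3. The cells from which these transcripts came were not identified.

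**Figure D1:**
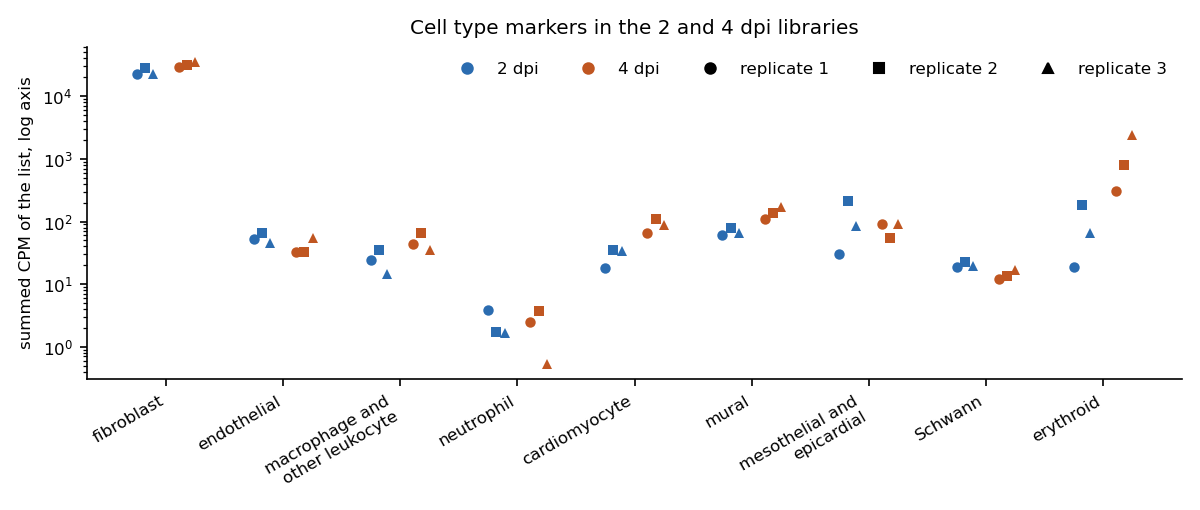
Summed CPM of 9 lists of cell type markers (log axis) in each library at 2 dpi (blue) and 4 dpi (orange), 1 point per library with the shape giving the replicate. Fibroblast markers lie at 22592 CPM or more in all 6 libraries, while cardiomyocyte and mural sums lie higher in all 3 libraries at 4 dpi than in any at 2 dpi and the erythroid sum reaches 2393 CPM in 4 dpi replicate 3.

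Between 2 and 4 dpi, 156 autosomal genes passed an adjusted p of 0.05 in edgeR's quasi-likelihood test (1.15% of those tested), 108 higher (0.797%) and 48 lower (0.354%). In each of the 156, no 4 dpi library overlapped a 2 dpi library, whereas among all autosomal genes tested 8.85% lay without overlap higher and 8.61% lower. At an unadjusted p under 0.05, 6.49% of the genes were higher and 4.63% lower. A log2 fold change above 0 was found in 50.9% of all autosomal genes tested. The counts of each list below stand beside these shares over all genes. The smallest log2 fold change called was 1.02 in size, 57 genes rose by at least 2 and 23 fell by at least 2. DESeq2 called more genes, 2.07% higher and 0.937% lower, and its calls held all 156. The count rested on the libraries used. It was 63 without 2 dpi replicate 1, 67 without 2 dpi replicate 2, 132 without 2 dpi replicate 3, 85 and 55 without 4 dpi replicates 1 and 2 and 186 without 4 dpi replicate 3.

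The 12 largest rises, among called genes that averaged 100 counts or more and did not overlap, are described first. *Col11a1* (GRCm38 chr3:114030540-114220718), a minor fibril collagen of cartilage that seeds thin collagen fibrils, was at 1.45, 0.85 and 0.404 CPM at 2 dpi and 21.4, 20.2 and 15.4 CPM at 4 dpi. Every 4 dpi library lay at least 10 times above the highest 2 dpi library (log2 fold change 4.38, SE 0.7, edgeR adjusted p = 0.0024). *Scx*, the transcription factor that marks tendon progenitors, was at 2.89, 3.56 and 5.71 CPM at 2 dpi and 20.6, 32.4 and 57.6 CPM at 4 dpi (log2 fold change 3.18, SE 0.49, edgeR adjusted p = 0.0016). *H19*, an imprinted long noncoding RNA, was at 5.03, 13.5 and 12.9 CPM at 2 dpi and 95.1, 123 and 157 CPM at 4 dpi (log2 fold change 3.57, SE 0.58, edgeR adjusted p = 0.0024). *Actg2*, the smooth muscle γ-actin, was at 1.71, 1.38 and 2.48 CPM at 2 dpi and 19.9, 18.6 and 23.4 CPM at 4 dpi (log2 fold change 3.47, SE 0.46, edgeR adjusted p = 0.00049). *Ptn* and *Ddah1*, which belong to the RCF markers, are given with them below. *Ddit4l*, an inhibitor of mTOR signalling, was at 2.41, 4.09 and 4.27 CPM at 2 dpi and 40.7, 40.9 and 12.7 CPM at 4 dpi, lowest in 4 dpi replicate 3 (log2 fold change 3.13, SE 0.43, edgeR adjusted p = 0.00056). *Glipr1*, of the family of cysteine-rich secretory proteins, was at 3.43, 5.79 and 6.06 CPM at 2 dpi and 51.3, 59.1 and 23.4 CPM at 4 dpi (log2 fold change 3.13, SE 0.54, edgeR adjusted p = 0.004). *Clca3a1*, of the family of calcium-activated chloride channel regulators, was at 1.93, 2.02 and 0.577 CPM at 2 dpi and 39.3, 30.8 and 17.4 CPM at 4 dpi (log2 fold change 4.26, SE 0.7, edgeR adjusted p = 0.0027). Whether the counting used strand is not stated, so that reads of a gene and of an antisense neighbour may be mixed. This holds for *Glipr1*, *Clca3a1*, *Elf3*, *Folr2*, *Prg4*, *Ahsg*, *Ttyh1*, *Matn4*, *Ltbp2*, *Fbn2*, *Mmp19*, *Myl3*, *Notch3*, *Nrg1*, *Kif26b*, *Glul* and *Mest*, and for others marked where they are described. *Col11a1*, *Scx*, *H19*, *Actg2*, *Ddit4l*, *Glipr1* and *Clca3a1* kept their call in each of the 6 fits that left out 1 library.

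The α-globin genes *Hba-a1* and *Hba-a2* met the same rule, with 6.21, 49.8 and 21.5 CPM at 2 dpi and 77.6, 172 and 597 CPM at 4 dpi for *Hba-a1* (log2 fold change 3.45, SE 0.83, edgeR adjusted p = 0.0466). The copies are near-identical, so the split of reads between them is uncertain. The level was highest in 4 dpi replicate 3, and *Hba-a1* kept its call only without 4 dpi replicate 1 (adjusted p up to 0.21 in the 5 other fits that left out 1 library). The β-globin genes *Hbb-bs* and *Hbb-bt* had adjusted p of 0.115 and 0.0789.

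**Figure D2:**
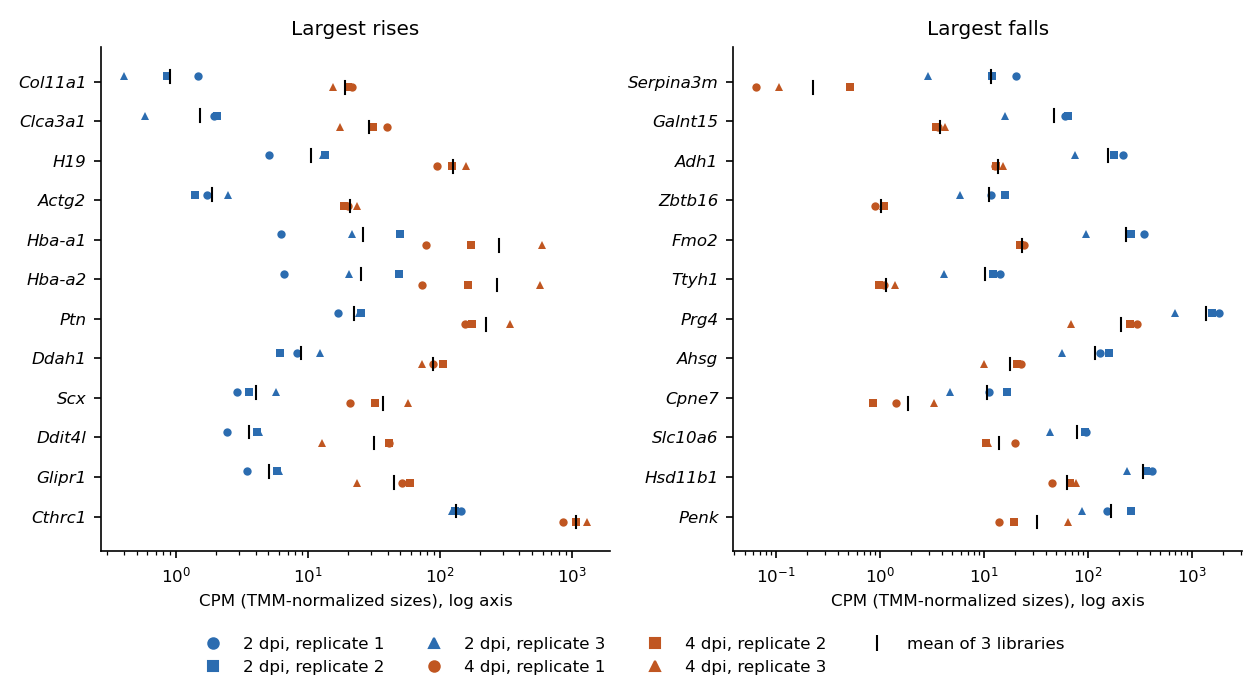
CPM (log axis) of the 12 genes that rose most and the 12 that fell most from 2 dpi (blue) to 4 dpi (orange), chosen among called autosomal genes averaging 100 counts or more without overlap, 1 point per library and a black bar at the mean of 3. Among the falls, 2 dpi replicate 3 (triangles) is the 2 dpi library nearest to 4 dpi in 12 of 12 genes.

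A further 5 called genes had no count in any 2 dpi library. *Col24a1*, a fibril-forming collagen chain known from bone, had 79, 74 and 32 counts at 4 dpi. Its mean level, 4.27 CPM, was at least 24.7-fold higher than the level of 3 counts in the shallowest 2 dpi library. For *Wfdc18*, with 244, 221 and 16 counts, the rise was at least 58.3-fold, and for *Klrb1a*, *Elf3* and *Folr2* it was at least 10.6-fold to 11.2-fold. *Klrb1a* and *Folr2*, which natural killer cells and macrophages express, lost their call in each of the 6 fits that left out 1 library (adjusted p up to 0.174 for both). *Elf3* lost its call without 2 dpi replicate 1, 2 dpi replicate 2, 2 dpi replicate 3 or 4 dpi replicate 1 (adjusted p up to 0.116). The leukocyte marker sums are given above, and their part in *Klrb1a* and *Folr2* was not tested. *Lrrc15*, a membrane protein of myofibroblasts, had no count in 2 dpi replicates 1 and 2, 0.635 CPM in replicate 3, and 7.14, 10.3 and 5.56 CPM at 4 dpi (log2 fold change 5.17, SE 0.96, edgeR adjusted p = 0.0077). *Adamts16*, a secreted metalloprotease, was at 0.0535, 0 and 0.115 CPM at 2 dpi and 3.44, 4.62 and 2.46 CPM at 4 dpi. *Adamts16* lost its call without 2 dpi replicate 1 (adjusted p = 0.0611) and without 2 dpi replicate 2 (adjusted p = 0.0545).

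The 12 largest falls included oxidizing enzymes, a steroid transporter and secreted proteins. *Fmo2* (GRCm38 chr1:162874317-162898726), a flavin-containing monooxygenase, was at 347, 264 and 95.4 CPM at 2 dpi and 24.5, 22.6 and 22.6 CPM at 4 dpi, a spread at 2 dpi far wider than at 4 dpi (log2 fold change -3.34, SE 0.47, edgeR adjusted p = 0.00065). *Adh1*, an alcohol dehydrogenase that also oxidizes retinol, was at 220.2, 179 and 76.2 CPM at 2 dpi and 12.9, 13.2 and 15.3 CPM at 4 dpi (log2 fold change -3.53, SE 0.56, edgeR adjusted p = 0.0019), and it shares exon sequence with an antisense gene. *Slc10a6*, a transporter of sulphated steroids, was at 96.8, 94.6 and 43.5 CPM at 2 dpi and 20, 10.6 and 11.1 CPM at 4 dpi (log2 fold change -2.49, SE 0.32, edgeR adjusted p = 0.00043). *Hsd11b1*, the enzyme that regenerates active glucocorticoid inside cells, was at 417, 368 and 237 CPM at 2 dpi and 45.8, 68.3 and 77.6 CPM at 4 dpi (log2 fold change -2.41, SE 0.48, edgeR adjusted p = 0.0121). *Hsd11b1* lost its call without 2 dpi replicate 1, 4 dpi replicate 1 or 4 dpi replicate 2 (adjusted p up to 0.0879). *Prg4*, which encodes the lubricant lubricin, was at 1831, 1566 and 688 CPM at 2 dpi and 299, 255 and 69.7 CPM at 4 dpi (log2 fold change -2.71, SE 0.52, edgeR adjusted p = 0.0103). *Prg4* lost its call without 2 dpi replicate 1 (adjusted p = 0.0535) and without 4 dpi replicate 2 (adjusted p = 0.0525). *Galnt15*, a glycosyltransferase that starts mucin-type O-glycans, was at 60.8, 64.9 and 16 CPM at 2 dpi and 3.64, 3.46 and 4.27 CPM at 4 dpi (log2 fold change -3.64, SE 0.72, edgeR adjusted p = 0.0121). *Galnt15* lost its call without 2 dpi replicate 1, 2 dpi replicate 2, 4 dpi replicate 1 or 4 dpi replicate 2 (adjusted p up to 0.0962). *Zbtb16*, which encodes the transcription factor PLZF, was at 11.8, 15.9 and 5.89 CPM at 2 dpi and 0.909, 1.1 and 1.07 CPM at 4 dpi (log2 fold change -3.44, SE 0.67, edgeR adjusted p = 0.0112). *Zbtb16* lost its call without 2 dpi replicate 2, 4 dpi replicate 1 or 4 dpi replicate 2 (adjusted p up to 0.0756).

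The remaining genes of the 12 largest falls are given next. *Penk*, the precursor of enkephalin peptides, was at 155, 264 and 87.7 CPM at 2 dpi and 14.1, 19.5 and 64.8 CPM at 4 dpi (log2 fold change -2.37, SE 0.57, edgeR adjusted p = 0.0448). *Penk* lost its call without 2 dpi replicate 1, 2 dpi replicate 2, 4 dpi replicate 1 or 4 dpi replicate 2 (adjusted p up to 0.233). *Ahsg*, which encodes the plasma protein fetuin-A, was at 132, 161 and 57.3 CPM at 2 dpi and 22.7, 20.8 and 10.1 CPM at 4 dpi. *Ahsg* lost its call without 2 dpi replicate 2 (adjusted p = 0.0523) and without 4 dpi replicate 2 (adjusted p = 0.0538). *Ttyh1*, of a family of chloride channels, was at 14.5, 12.3 and 4.16 CPM at 2 dpi and 1.1, 0.981 and 1.39 CPM at 4 dpi. *Ttyh1* lost its call without 4 dpi replicate 2 (adjusted p = 0.0628). *Cpne7*, a calcium-dependent membrane-binding copine, was at 11.2, 16.7 and 4.73 CPM at 2 dpi and 1.43, 0.866 and 3.31 CPM at 4 dpi. *Cpne7* lost its call without 2 dpi replicate 1, 2 dpi replicate 2, 4 dpi replicate 1 or 4 dpi replicate 2 (adjusted p up to 0.246). *Serpina3m* had the largest fitted fall (log2 fold change -5.52, SE 0.93, edgeR adjusted p = 0.0034), from 20.4, 12 and 2.89 CPM to at most 0.519 CPM, and belongs to a cluster of near-identical genes whose reads are hard to assign. In these 12 genes and in 39 of the 48 that fell, 2 dpi replicate 3 was the lowest of the 2 dpi libraries, as it was in 33.4% of all autosomal genes tested.

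**Figure D3:**
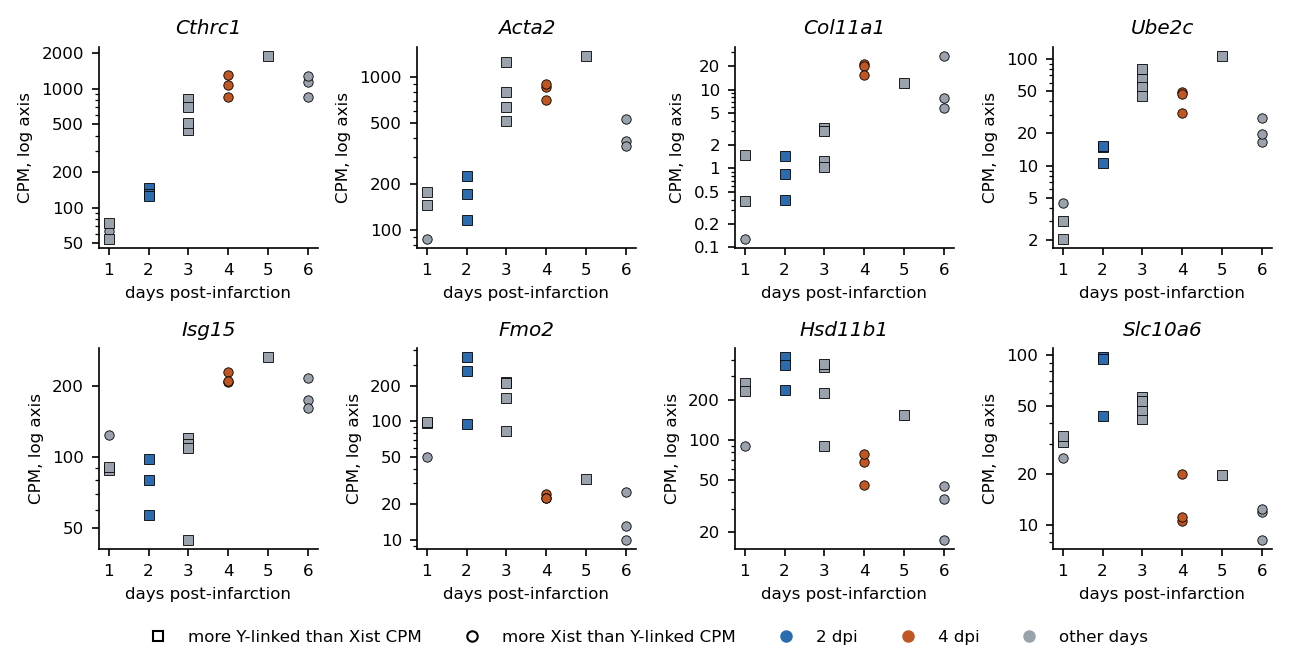
CPM (log axis) of 8 genes in each of the 17 libraries against days post-infarction, with 2 dpi in blue, 4 dpi in orange and other days in grey. Squares are libraries with more Y-linked than *Xist* CPM and circles the reverse, so that the reader can see where 1 dpi replicate 1 (circle) and the 5 dpi library (square) lie beside the 2 and 4 dpi libraries.

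Values from 2 further libraries stand beside this comparison. At 5 dpi the only library had the Y-linked pattern, as at 2 dpi, and 1 dpi replicate 1 had mostly *Xist*, as at 4 dpi, with 10.47 CPM of the Y-linked genes. The plot of 8 genes over the time course shows them. *Cthrc1* was at 63.6 CPM in 1 dpi replicate 1 and at 1876 CPM at 5 dpi, against 133 ± 11.2 CPM (SD, n = 3) at 2 dpi and 1076 ± 223 CPM (SD, n = 3) at 4 dpi. *Acta2* was at 87.1 and 1371 CPM in these libraries, *Scx* at 2.15 and 104 CPM, and *Col11a1* at 0.127 and 12 CPM. In 1 dpi replicates 2 and 3, *Cthrc1* was at 54.2 and 73.5 CPM and *Acta2* at 176 and 146 CPM. *Scx* was at 4.7 and 6.99 CPM there, and *Col11a1* at 1.48 and 0.391 CPM. *Fmo2* was at 50 CPM in 1 dpi replicate 1 and 32.6 CPM at 5 dpi, both below the 2 dpi libraries, and at 97.9 and 99.8 CPM in 1 dpi replicates 2 and 3. *Hsd11b1* was at 90 CPM in 1 dpi replicate 1, where 1 dpi replicates 2 and 3 had 269 and 233 CPM, and at 152 CPM at 5 dpi, between the levels of 2 and 4 dpi. *Slc10a6* was at 24.8 CPM in 1 dpi replicate 1 and 19.6 CPM at 5 dpi, and at 30.8 and 33.4 CPM in 1 dpi replicates 2 and 3. Within 1 dpi, replicate 1 alone had more *Xist* than Y-linked counts. Its total was 8021815, against 22029938 and 19690693 in replicates 2 and 3. Replicate 2 also had 20.93 CPM of *Xist*, against 3.2 CPM in replicate 3. A fit with a term for the sex-linked pattern can be made only through the 3 libraries of 1 dpi, the one day with both patterns. This fit therefore also carries whatever else sets 1 dpi replicate 1 apart. It called 15 autosomal genes, all with a fitted log2 fold change above 0, of which 8 were among the 156. The median standard error of the 156 was 0.67 in this fit against 0.37 in the main fit. *Cthrc1* (log2 fold change 3.03, SE 0.55, edgeR adjusted p = 0.044), *Ddah1* (log2 fold change 3.64, SE 0.57, edgeR adjusted p = 0.0145), *Ptn* (log2 fold change 3.82, SE 0.7, edgeR adjusted p = 0.044) and *P4ha3* (log2 fold change 5.24, SE 0.73, edgeR adjusted p = 0.0068) were called in both fits, as were *Kif26b*, *Rflnb*, the mural marker *Cspg4* and the cardiomyocyte marker *Tnnt2*. The 7 others included genes with little difference between the days, such as *Mettl27*, at 8.67, 8.66 and 8.14 CPM at 2 dpi and 9.35, 6.64 and 10.8 CPM at 4 dpi, with 0.253 CPM in 1 dpi replicate 1, and *Fgd5*, at 8.78, 7.44 and 8.37 CPM at 2 dpi and 6.95, 7.68 and 5.02 CPM at 4 dpi, with 0.633 CPM there. Of the 156 genes, 155 had the same sign in that fit, the exception being *Ccl9*. Over whole lists, the median changed sign for the resting fibroblast, leukocyte, complement and immediate early genes, whose values stand with each list. It also did so for the fibroblast (-0.14 to 0.12), endothelial (-0.29 to 0.12) and Schwann cell markers (-0.46 to 0.02).

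Of the 6 RCF markers the study uses, 5 rose and *Lox* did not pass the test. These genes were chosen by the study in CFs after MI and are not independent evidence of their direction. *Cthrc1* (GRCm38 chr15:39076932-39087121) was at 145, 129 and 124 CPM at 2 dpi and 854, 1076 and 1299 CPM at 4 dpi (log2 fold change 3.02, SE 0.29, edgeR adjusted p = 1.1e-05). *Ddah1*, which degrades an endogenous inhibitor of nitric oxide synthases, was at 8.3, 6.11 and 12.2 CPM at 2 dpi and 88.1, 105 and 73 CPM at 4 dpi (log2 fold change 3.32, SE 0.3, edgeR adjusted p = 3.9e-06). *Ptn*, which encodes the heparin-binding growth factor pleiotrophin, was at 16.9, 25.2 and 24.2 CPM at 2 dpi and 155, 176 and 342 CPM at 4 dpi (log2 fold change 3.34, SE 0.37, edgeR adjusted p = 6.4e-05). *Fn1*, fibronectin, rose from 392 ± 31.5 CPM (SD, n = 3) to 2331 ± 232 CPM (SD, n = 3) (log2 fold change 2.57, SE 0.36, edgeR adjusted p = 0.00061) and shares exon sequence with an antisense gene. *Postn*, the matricellular protein periostin, was at 1175, 606 and 1015 CPM at 2 dpi and 2394, 3063 and 3075 CPM at 4 dpi (log2 fold change 1.61, SE 0.35, edgeR adjusted p = 0.022). *Postn* lost its call without 2 dpi replicate 1, 2 dpi replicate 2, 2 dpi replicate 3 or 4 dpi replicate 2 (adjusted p up to 0.172). *Lox*, which crosslinks collagen, was at 509, 288 and 229 CPM at 2 dpi and 496, 509 and 388 CPM at 4 dpi (edgeR adjusted p = 0.812), and the days overlapped.

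Among matrix genes, 5 of 35 collagen chains tested rose and none fell (14.3% called, against 1.15% of all genes), with a median log2 fold change of 0.42 against 0.01 over all genes. With *Col11a1*, *Col24a1* and *Col9a2*, a chain of cartilage collagen IX at 0.643, 0.638 and 0.0577 CPM at 2 dpi and 9.09, 3.29 and 14.5 CPM at 4 dpi (log2 fold change 4.28, SE 0.74, edgeR adjusted p = 0.004), these were *Col12a1* and *Col14a1*, which coat collagen fibrils. *Col14a1* was at 94.4, 89 and 103 CPM at 2 dpi and 168, 211 and 409 CPM at 4 dpi, highest in 4 dpi replicate 3. *Col14a1* kept its call only without 4 dpi replicate 1 (adjusted p up to 0.139 in the 5 other fits that left out 1 library). *Col12a1* was at 28.9, 22.4 and 23.1 CPM at 2 dpi and 54.2, 58.2 and 63.9 CPM at 4 dpi. *Col12a1* lost its call in each of the 6 fits that left out 1 library (adjusted p up to 0.156). The abundant chains of the scar did not pass the adjustment in the edgeR fit of all 17 libraries. *Col1a1* was at 2987, 3729.6 and 3289 CPM at 2 dpi and 7997, 8601 and 9423 CPM at 4 dpi (log2 fold change 1.38, adjusted p = 0.0975) and *Col3a1* at 3080, 3281 and 3505 CPM at 2 dpi and 5976, 7087 and 7953 CPM at 4 dpi (log2 fold change 1.09, adjusted p = 0.106). Neither gene overlapped between the days, and both passed in DESeq2 (adjusted p = 0.0068 and 0.0044). The edgeR outcome also depended on the libraries fitted. In edgeR on the 2 and 4 dpi libraries alone, 7 of 32 collagen chains were called higher. *Col1a1* and *Col1a2* were among them and *Col3a1* was not.

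Of 33 genes that fold, process or crosslink collagen, 1 rose (3.03%, median 0.29). This was *P4ha3* (GRCm38 chr7:100285520-100319699), a catalytic subunit of the prolyl hydroxylase that stabilizes collagen, at 6.75, 7.92 and 8.49 CPM at 2 dpi and 56, 57.5 and 65 CPM at 4 dpi (log2 fold change 2.95, SE 0.4, edgeR adjusted p = 0.00056). *Serpinh1*, the collagen chaperone and the member with the most counts, was at 741, 657 and 1634 CPM at 2 dpi and 1534, 1898 and 1634 CPM at 4 dpi and did not pass. Of 33 matricellular and adhesive glycoproteins, 6 rose (18.2%, median 0.51). Beside *Cthrc1*, *Fn1* and *Postn* these were *Ccn4*, *Thbs4* and *Matn4*. *Thbs4*, thrombospondin 4, was at 90.8, 40.9 and 73.9 CPM at 2 dpi and 179, 213 and 260.4 CPM at 4 dpi (log2 fold change 1.67, SE 0.36, edgeR adjusted p = 0.0235). *Thbs4* lost its call without 2 dpi replicate 2, 2 dpi replicate 3, 4 dpi replicate 2 or 4 dpi replicate 3 (adjusted p up to 0.172). *Matn4*, a matrilin of cartilage, was at 0.696, 0.744 and 0.924 CPM at 2 dpi and 6.43, 3.81 and 5.88 CPM at 4 dpi (log2 fold change 2.75, SE 0.54, edgeR adjusted p = 0.0112). *Matn4* lost its call without 2 dpi replicate 1 (adjusted p = 0.0814) and without 2 dpi replicate 2 (adjusted p = 0.0685). *Ccn4*, a WNT-inducible matricellular protein, was at 16.1, 10.3 and 23.6 CPM at 2 dpi and 60.2, 64.3 and 45.1 CPM at 4 dpi (log2 fold change 1.77, SE 0.4, edgeR adjusted p = 0.0294). *Ccn4* lost its call without 2 dpi replicate 1, 2 dpi replicate 2, 4 dpi replicate 1 or 4 dpi replicate 2 (adjusted p up to 0.193). *Sparc*, the member with the most counts, was at 7511 ± 859 CPM (SD, n = 3) and 11457 ± 1251 CPM (SD, n = 3) (adjusted p = 0.449).

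Of 11 small leucine-rich proteoglycans, *Fmod* rose (9.09%, median 0.04). This fibromodulin, which regulates fibril diameter and is abundant in tendon, was at 3.32, 10.3 and 10.9 CPM at 2 dpi and 31.7, 39.5 and 62.1 CPM at 4 dpi (log2 fold change 2.44, SE 0.41, edgeR adjusted p = 0.0034). *Dcn*, decorin, the member with the most counts, was at 11667, 15205 and 10979.5 CPM at 2 dpi and 6427, 5947 and 9551 CPM at 4 dpi (log2 fold change -0.79, adjusted p = 0.366). Of 17 elastic fibre genes, *Ltbp2* and *Fbn2* rose (11.8%, median 0.16), *Ltbp2*, a latent TGF-β binding protein, from 50.2 ± 13.9 CPM (SD, n = 3) to 139 ± 3.18 CPM (SD, n = 3) (log2 fold change 1.46, SE 0.27, edgeR adjusted p = 0.0071). *Fbn2*, fibrillin 2, was at 9.05, 9.67 and 8.08 CPM at 2 dpi and 22.1, 27 and 30.3 CPM at 4 dpi (log2 fold change 1.56, SE 0.34, edgeR adjusted p = 0.0235), and it kept its call only without 4 dpi replicate 1 (adjusted p up to 0.119 in the 5 other fits that left out 1 library), whereas *Ltbp2* lost its call without 2 dpi replicate 2 (adjusted p = 0.0628). *Mfap5*, the member with the most counts, had an adjusted p of 0.903. Of 38 matrix proteases and inhibitors, *Adamts16* rose and *Mmp19*, a matrix metalloproteinase, fell (5.26%, median 0.08), the latter from 75.5 ± 16.3 CPM (SD, n = 3) to 30.8 ± 3.42 CPM (SD, n = 3) (log2 fold change -1.3, SE 0.21, edgeR adjusted p = 0.0027), and *Timp2*, the inhibitor with the most counts, had an adjusted p of 0.96.

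**Figure D4:**
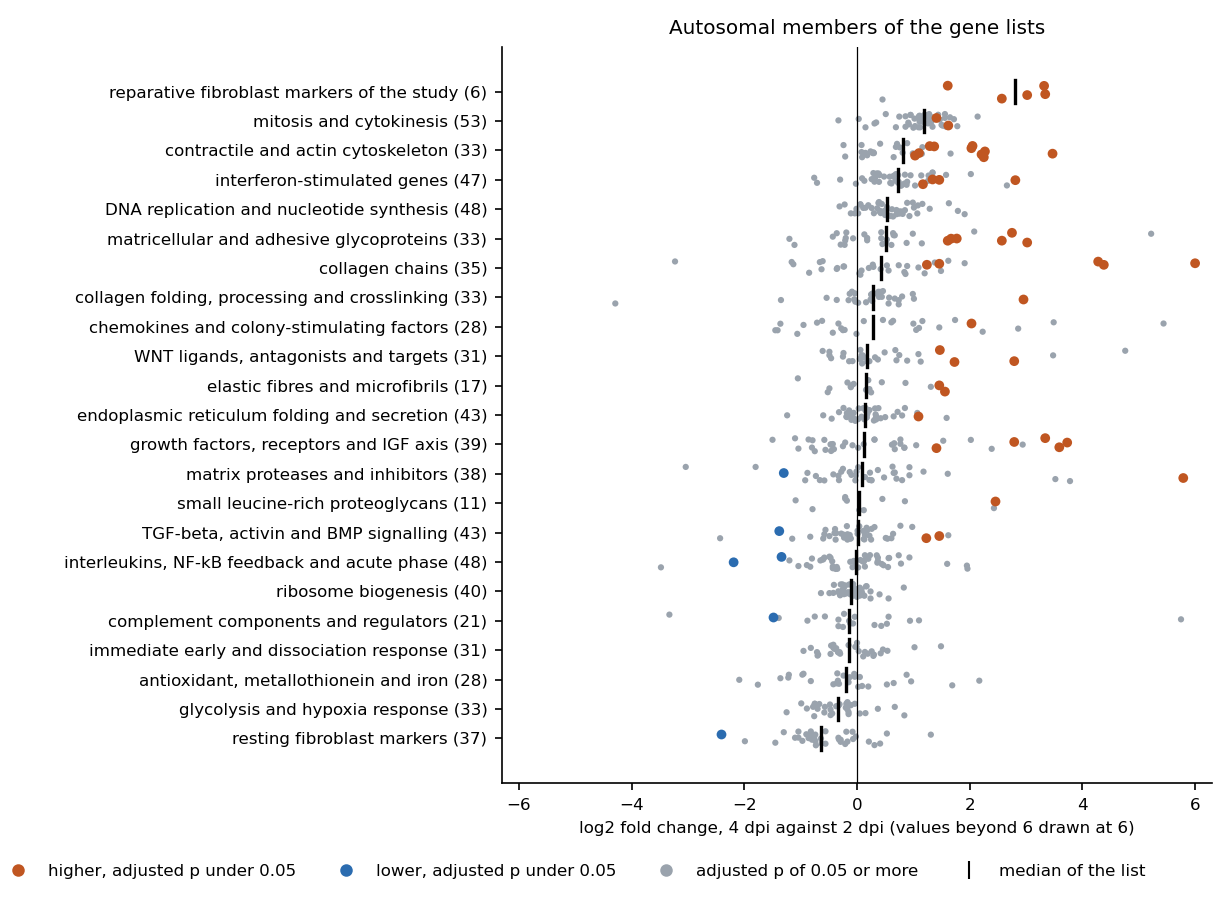
Log2 fold change from 2 to 4 dpi of the autosomal members tested of 23 gene lists, with the number tested in brackets, ordered by the median of the list (black bar). Orange points rose and blue points fell at an adjusted p under 0.05 and grey points did not pass, and *Col24a1*, at 0 in all 2 dpi libraries, is drawn at the edge.

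Contractile and actin cytoskeleton genes gave the most calls of any list by number, though not by share. Of 33 tested, 10 rose and none fell (30.3%, against 1.15% of all genes), the median log2 fold change was 0.81, and DESeq2 called 16. *Acta2* (GRCm38 chr19:34241090-34255590), the smooth muscle α-actin of myofibroblasts, was at 171, 117 and 225 CPM at 2 dpi and 858, 897 and 708 CPM at 4 dpi (log2 fold change 2.27, SE 0.35, edgeR adjusted p = 0.0019). *Tagln*, the actin-binding transgelin, was at 138, 134 and 208 CPM at 2 dpi and 604, 760.4 and 595 CPM at 4 dpi (log2 fold change 2.03, SE 0.35, edgeR adjusted p = 0.004) and shares exon sequence with 2 antisense genes. *Myl9*, a regulatory light chain of non-skeletal myosin, was at 38.9, 61.2 and 68.4 CPM at 2 dpi and 162, 241 and 295 CPM at 4 dpi (log2 fold change 2.05, SE 0.32, edgeR adjusted p = 0.0019). *Palld*, a scaffold of stress fibres, was at 21, 14.9 and 30.5 CPM at 2 dpi and 75.2, 106 and 136 CPM at 4 dpi (log2 fold change 2.25, SE 0.38, edgeR adjusted p = 0.0033). *Acta2*, *Actg2*, *Tagln*, *Myl9* and *Palld* kept their call without any 1 library. The other 5 did not: *Cnn1* (log2 fold change 2.21), *Cnn2* (1.37), *Csrp1* (1.1), *Csrp2* (1.29) and *Tpm1* (1.03) each lost their call without 2 dpi replicate 1, 4 dpi replicate 1 or 4 dpi replicate 2. Without 2 dpi replicate 2, all but *Cnn1* lost it, with an adjusted p of up to 0.27 for *Tpm1*. *Csrp2* lost it in all 6 fits, and *Cnn1* also without replicate 3 of either day. *Vim*, the intermediate filament vimentin and the member with the most counts, was at 4298 ± 669 CPM (SD, n = 3) and 4589.8 ± 283 CPM (SD, n = 3) (adjusted p = 0.973).

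Some markers of muscle cells rose beside these genes. Of 11 cardiomyocyte markers tested, 9 lay above 0 and 2 below, with log2 fold changes from -1.72 to 2.96. Of 7 mural markers, 5 lay above 0 and 2 below, from -0.52 to 1.8. *Actc1*, the cardiac α-actin, was at 0.643, 1.06 and 3.87 CPM at 2 dpi and 11.8, 19.3 and 12.2 CPM at 4 dpi (log2 fold change 2.96, SE 0.61, edgeR adjusted p = 0.0168), *Tnnt2*, cardiac troponin T, at 2.73, 3.08 and 5.37 CPM at 2 dpi and 12.6, 19 and 19.9 CPM at 4 dpi (log2 fold change 2.2, SE 0.45, edgeR adjusted p = 0.0162), and *Myl3*, a ventricular myosin light chain, at 1.61, 1.81 and 2.48 CPM at 2 dpi and 8.77, 12.5 and 7.37 CPM at 4 dpi (log2 fold change 2.28, SE 0.49, edgeR adjusted p = 0.0217). All 3 lost their call without 2 dpi replicate 1, 2 dpi replicate 2 or 4 dpi replicate 2, and *Myl3* also without 4 dpi replicate 1, at adjusted p of up to 0.12, 0.126 and 0.145. *Myh6*, the main cardiac myosin of the adult mouse, was at 1.18, 1.22 and 0.866 CPM at 2 dpi and 1.88, 2.08 and 6.94 CPM at 4 dpi (adjusted p = 0.297). Of the mural markers, *Rgs5* was at 11.3, 6.75 and 15.9 CPM at 2 dpi and 19.5, 35.7 and 50.5 CPM at 4 dpi (log2 fold change 1.64, SE 0.39, edgeR adjusted p = 0.0404), *Cspg4* at 3.53, 4.78 and 3.64 CPM at 2 dpi and 12.4, 16.1 and 13.2 CPM at 4 dpi (log2 fold change 1.8, SE 0.35, edgeR adjusted p = 0.0112) and *Notch3* at 23, 22.2 and 23.9 CPM at 2 dpi and 52.8, 56.5 and 49.6 CPM at 4 dpi (log2 fold change 1.2, SE 0.22, edgeR adjusted p = 0.0078). *Rgs5* lost its call without 2 dpi replicate 1, 2 dpi replicate 2, 4 dpi replicate 2 or 4 dpi replicate 3 (adjusted p up to 0.229), *Cspg4* lost its call without 2 dpi replicate 1, 2 dpi replicate 3 or 4 dpi replicate 2 (adjusted p up to 0.0842), and *Notch3* lost its call without 2 dpi replicate 1, 2 dpi replicate 2 or 4 dpi replicate 2 (adjusted p up to 0.0545). The smooth muscle myosin *Myh11*, a defining marker of smooth muscle cells, was at 5.41, 18.3 and 6.47 CPM at 2 dpi and 3.25, 7.73 and 29.8 CPM at 4 dpi and overlapped between the days. The part of cardiomyocyte or mural RNA in the contractile list was not tested.

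Promoters of contractile genes are shown because these genes rose together and many genes of smooth muscle carry a CArG box, the sequence bound by serum response factor. In the RefSeq windows of GRCm38.p6, 250 bases before to 50 after the start, a CArG box on either strand was found in 8 of 36 windows of the list (22.2%) and in 1.63% of all 32851 windows. This search was added after the rises were seen. Of the 10 genes that rose, 7 have a window, and *Myl9* and *Cnn2* hold a match. The stretches from 20 bases before the match to the base before the start are, 5′ to 3′ on the plus strand with the match in capitals:
Myl9 (chr2:156775283-156775463): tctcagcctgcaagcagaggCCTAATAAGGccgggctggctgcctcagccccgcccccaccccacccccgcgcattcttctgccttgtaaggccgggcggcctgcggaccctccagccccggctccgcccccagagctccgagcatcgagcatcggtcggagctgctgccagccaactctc
Cnn2 (chr10:79988524-79988599): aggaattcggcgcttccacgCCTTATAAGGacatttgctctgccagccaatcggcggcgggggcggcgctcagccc
A match is a description of these letters, and binding was not measured.

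Genes of cell division were higher by direction in nearly every member but few passed the test. Of 53 mitosis and cytokinesis genes, *Ube2c* and *Cenpa* rose (3.77%), the median log2 fold change was 1.19, and 29 were higher and none lower at an unadjusted p under 0.05. DESeq2 called 12 of the 53. Of all genes, 1.15% were called in edgeR, and 6.49% were higher and 4.63% lower at that unadjusted p. *Ube2c* (GRCm38 chr2:164769898-164778822), the ubiquitin-conjugating enzyme of the anaphase-promoting complex, was at 15.1, 10.7 and 15.4 CPM at 2 dpi and 48.6, 47.2 and 30.9 CPM at 4 dpi (log2 fold change 1.62, SE 0.3, edgeR adjusted p = 0.0078). *Ube2c* lost its call without 2 dpi replicate 2 (adjusted p = 0.0685) and without 4 dpi replicate 2 (adjusted p = 0.0508). It shares exon sequence with an antisense gene. *Cenpa*, the histone H3 variant of centromeres, was at 60.3, 28.7 and 35 CPM at 2 dpi and 147, 118 and 64.6 CPM at 4 dpi (log2 fold change 1.41, SE 0.34, edgeR adjusted p = 0.0458). *Cenpa* lost its call without 2 dpi replicate 2, 2 dpi replicate 3, 4 dpi replicate 1 or 4 dpi replicate 2 (adjusted p up to 0.246). Of 48 genes of DNA replication and nucleotide synthesis, none passed in edgeR (median 0.53), 10 were higher and none lower at an unadjusted p under 0.05, and DESeq2 called 1. *Tyms*, thymidylate synthase, was at 30.6, 30.2 and 47.7 CPM at 2 dpi and 80.6, 93 and 55.9 CPM at 4 dpi (log2 fold change 1.08, adjusted p = 0.102), and *Pcna*, the sliding clamp, at 126, 82.8 and 98.5 CPM at 2 dpi and 75.6, 72.7 and 99.4 CPM at 4 dpi (log2 fold change -0.31, adjusted p = 0.888).

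One library stood apart in these values. The mean log2 CPM of the 53 mitosis genes was 2.53, 1.9 and 2.77 at 2 dpi and 3.86, 3.85 and 2.77 at 4 dpi, so that 4 dpi replicate 3 lay at the level of 2 dpi replicate 3, and it was the lowest 4 dpi library in 44 of the 53 genes. Without it the median log2 fold change was 1.39 and 10 genes were called, *Anln*, *Birc5*, *Bub1b*, *Ccnb2*, *Cdca3*, *Cenpa*, *Kif22*, *Melk*, *Spc24* and *Ube2c*. *Birc5*, the inhibitor of apoptosis survivin that acts in chromosome segregation, shows the pattern, at 23.6, 15.7 and 29 CPM at 2 dpi and 88.4, 78.8 and 35.7 CPM at 4 dpi. The replication genes behaved likewise, at 3.12, 3.07 and 3.58 against 4.12, 3.99 and 3.25, and without 4 dpi replicate 3 *Chaf1b* was called. In the 5 dpi library the means were 4.08 and 4.01. 4 dpi replicate 3 also had the fewest counts and the highest erythroid sum, and the part of either in these values was not tested.

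**Figure D5:**
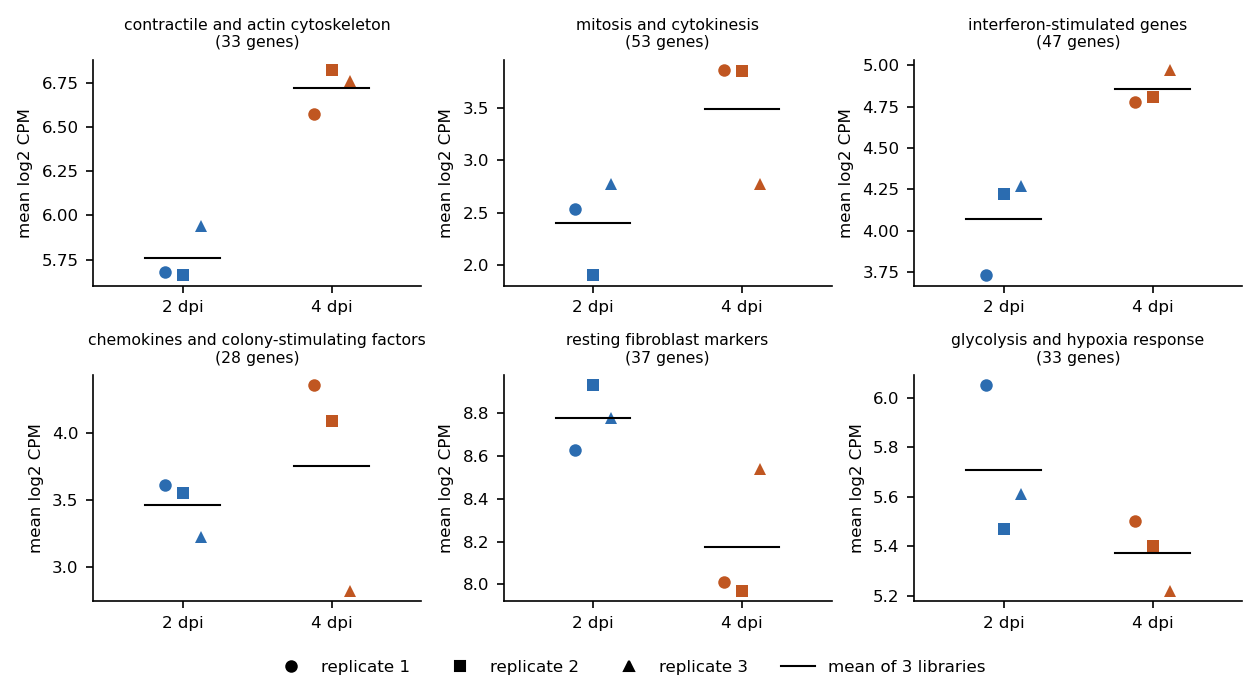
Mean log2 CPM over the tested members of 6 gene lists in each 2 dpi (blue) and 4 dpi (orange) library, with the shape giving the replicate, a black line at the mean of 3 libraries and a separate vertical scale in each panel. Contractile and interferon-stimulated genes lie higher in all 3 libraries at 4 dpi, while 4 dpi replicate 3 (triangle) lies at 2.77 for mitosis and 2.82 for chemokines, within or below the range of 2 dpi.

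The promoters of *Ube2c* and *Cenpa* are shown because genes of mitosis are known to share CCAAT boxes and a cell cycle element. CCAAT, on either strand, was found in 35 of 49 windows of the mitosis list (71.4%) and in 37.4% of all windows. TTTGAA, a core of that element, was found in 36 of 49 (73.5%) and in 17.9%. The letters TTTGGCGC or TTTCCCGC, forms of the E2F site, were found in 11 of 47 windows of the replication list (23.4%) and in 1.56%. *Ube2c* has 6 CCAAT matches before its start, of which a pair overlaps on opposite strands, and *Cenpa* has 2. *Ube2c* holds 1 TTTGAA match, between its last CCAAT match and the start, and *Cenpa* 1, after the start and outside the stretch printed. The stretches from 20 bases before the first CCAAT match to the base before the start, with CCAAT in capitals (ATTGG where it lies on the minus strand), are:
Ube2c (chr2:164769681-164769928): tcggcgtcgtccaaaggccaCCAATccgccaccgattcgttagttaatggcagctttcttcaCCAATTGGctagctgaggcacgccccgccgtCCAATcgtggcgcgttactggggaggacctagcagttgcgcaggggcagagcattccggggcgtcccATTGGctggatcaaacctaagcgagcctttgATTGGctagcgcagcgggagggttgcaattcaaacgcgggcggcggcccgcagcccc
Cenpa (chr5:30666757-30666885): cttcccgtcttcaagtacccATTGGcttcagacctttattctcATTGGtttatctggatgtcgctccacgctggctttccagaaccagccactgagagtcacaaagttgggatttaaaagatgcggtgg

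Of the interferon-stimulated genes listed, 43 of 47 lay above 0, with a median log2 fold change of 0.73. In edgeR 4 rose and none fell (8.51%), 23 were higher and 1 lower at an unadjusted p under 0.05, and DESeq2 called 7. Of all genes, 50.9% lay above 0, and 6.49% were higher and 4.63% lower at that unadjusted p. Interferon-inducible genes outside this list fell, and are named after their values were seen. *Ifi207* was at 147, 133 and 65.7 CPM at 2 dpi and 27.7, 21.5 and 30.4 CPM at 4 dpi (log2 fold change -2.12, SE 0.35, edgeR adjusted p = 0.0032) and kept its call without any 1 library. *Ifi205* was at 511, 596 and 399 CPM at 2 dpi and 181, 179 and 129.9 CPM at 4 dpi (log2 fold change -1.62, SE 0.35, edgeR adjusted p = 0.0219). *Ifi205* kept its call only without 2 dpi replicate 3 (adjusted p up to 0.115 in the 5 other fits that left out 1 library). *Ifi211* was at 489.8, 535 and 370.4 CPM at 2 dpi and 182, 175 and 136 CPM at 4 dpi (log2 fold change -1.5, SE 0.33, edgeR adjusted p = 0.0279). *Ifi211* kept its call only without 2 dpi replicate 3 (adjusted p up to 0.133 in the 5 other fits that left out 1 library). These are members of the p200 family, a cluster of similar genes whose reads are hard to assign. *Isg15* (GRCm38 chr4:156199424-156200818), a ubiquitin-like modifier, was at 57.1, 79.9 and 98.4 CPM at 2 dpi and 207, 229.9 and 210.3 CPM at 4 dpi (log2 fold change 1.46, SE 0.31, edgeR adjusted p = 0.0217). *Isg15* lost its call without 2 dpi replicate 1, 2 dpi replicate 2, 4 dpi replicate 1 or 4 dpi replicate 2 (adjusted p up to 0.168). *Ifi44* was at 1.61, 2.13 and 3.12 CPM at 2 dpi and 14.6, 15.3 and 18.4 CPM at 4 dpi (log2 fold change 2.81, SE 0.59, edgeR adjusted p = 0.0192). *Ifi44* lost its call without 2 dpi replicate 1, 2 dpi replicate 2 or 4 dpi replicate 2 (adjusted p up to 0.142). *Bst2*, tetherin, was at 235, 292 and 401 CPM at 2 dpi and 657, 760.3 and 669 CPM at 4 dpi (log2 fold change 1.17, SE 0.28, edgeR adjusted p = 0.0477). *Bst2* kept its call only without 2 dpi replicate 3 (adjusted p up to 0.255 in the 5 other fits that left out 1 library). *Oas1a*, a sensor of double-stranded RNA with near-identical neighbours, was at 10.5, 15.7 and 16.8 CPM at 2 dpi and 31.4, 32.6 and 45.3 CPM at 4 dpi (log2 fold change 1.34, SE 0.31, edgeR adjusted p = 0.0343). *Oas1a* lost its call in each of the 6 fits that left out 1 library (adjusted p up to 0.21). *Ifi27l2a*, the member with the most counts, was at 655, 1879 and 2266 CPM at 2 dpi and 1849.8, 1882 and 2167 CPM at 4 dpi, with overlap and no call. The list mean was 3.73, 4.22 and 4.27 log2 CPM at 2 dpi and 4.78, 4.81 and 4.97 at 4 dpi, and 4.63 in the 5 dpi library. The leukocyte markers, whose sum was at most 65.6 CPM, also lay higher by direction. In the fit with a term for the sex-linked pattern, their median was -1.01 and that of the interferon list 0.74. The part of leukocyte RNA in this list was not tested.

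Inflammatory genes were mixed in direction. Of 28 chemokines and colony-stimulating factors, *Ccl9* rose (3.57%, median 0.29), from 10.4 ± 0.472 CPM (SD, n = 3) to 42.1 ± 13.6 CPM (SD, n = 3) (log2 fold change 2.02, SE 0.43, edgeR adjusted p = 0.0217). *Ccl9* kept its call only without 4 dpi replicate 3 (adjusted p up to 0.131 in the 5 other fits that left out 1 library). Its log2 fold change was -0.13 in the fit with a term for the sex-linked pattern, a reversed sign. *Cxcl1*, a neutrophil attractant and the member with the most counts, was at 1589, 1814 and 1115 CPM at 2 dpi and 1943, 1771 and 1208 CPM at 4 dpi and did not pass. The list mean was 3.61, 3.55 and 3.22 log2 CPM at 2 dpi and 4.36, 4.09 and 2.82 at 4 dpi. GGANTTTCC, a form of the NF-kB site, was found in 5 of 25 windows of this list (20%) and in 1.25% of all windows, and not in that of *Ccl9*. Of 48 interleukin, NF-kB feedback and acute phase genes, 2 fell and none rose (4.17%, median -0.01). *Il6ra*, the receptor chain for interleukin 6, was at 30.6, 22.1 and 15.3 CPM at 2 dpi and 4.55, 4.16 and 6.3 CPM at 4 dpi (log2 fold change -2.19, SE 0.45, edgeR adjusted p = 0.0177). *Il6ra* lost its call without 2 dpi replicate 1, 2 dpi replicate 2, 4 dpi replicate 1 or 4 dpi replicate 2 (adjusted p up to 0.121). *Irak3*, a brake on Toll-like receptor signalling, was at 26.8, 38.3 and 20 CPM at 2 dpi and 10.4, 12.6 and 10.6 CPM at 4 dpi (log2 fold change -1.34, SE 0.27, edgeR adjusted p = 0.0164). *Irak3* lost its call without 2 dpi replicate 1, 2 dpi replicate 2, 4 dpi replicate 1 or 4 dpi replicate 2 (adjusted p up to 0.143). Both share exon sequence with antisense genes. *Socs3*, feedback inhibitor of cytokine signalling, was at 746, 805 and 627 CPM at 2 dpi and 399, 439 and 336 CPM at 4 dpi (log2 fold change -0.89, adjusted p = 0.248). Of 21 complement genes, *C4b* fell (4.76%, median -0.14, and 0.48 with the sex-linked term), at 153, 236 and 149 CPM at 2 dpi and 87.3, 48 and 55.4 CPM at 4 dpi (log2 fold change -1.5, SE 0.36, edgeR adjusted p = 0.0482). *C4b* lost its call in each of the 6 fits that left out 1 library (adjusted p up to 0.245). *C4b* has a near-identical neighbour, and its reads may be split. *Serping1*, the C1 inhibitor and the member with the most counts, had an adjusted p of 0.904.

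Of 39 growth factor and receptor genes listed, 5 rose and none fell (12.8%, median 0.12). *Pgf*, placental growth factor, is not in the list and fell, and is named after its values were seen. It was at 147, 132 and 58.3 CPM at 2 dpi and 31.4, 22.7 and 35.5 CPM at 4 dpi (log2 fold change -1.91, SE 0.46, edgeR adjusted p = 0.0479). *Pgf* kept its call only without 2 dpi replicate 3 (adjusted p up to 0.237 in the 5 other fits that left out 1 library). *Mdk*, midkine, the closest relative of pleiotrophin, was at 20.1, 25.8 and 30.7 CPM at 2 dpi and 145, 126 and 258 CPM at 4 dpi (log2 fold change 2.79, SE 0.33, edgeR adjusted p = 0.00013), and kept its call without any 1 library. *Hgf*, hepatocyte growth factor, was at 1.02, 0.213 and 0.346 CPM at 2 dpi and 9.93, 5.83 and 3.53 CPM at 4 dpi (log2 fold change 3.59, SE 0.84, edgeR adjusted p = 0.0375). *Hgf* kept its call only without 4 dpi replicate 3 (adjusted p up to 0.2 in the 5 other fits that left out 1 library). *Nrg1*, the ErbB ligand neuregulin 1, was at 0, 0.691 and 0.693 CPM at 2 dpi and 4.74, 3.64 and 10.4 CPM at 4 dpi (log2 fold change 3.73, SE 0.87, edgeR adjusted p = 0.0375). *Nrg1* lost its call in each of the 6 fits that left out 1 library (adjusted p up to 0.119). *Fgfrl1*, an FGF receptor without a kinase domain, was at 5.03, 11.4 and 6.87 CPM at 2 dpi and 20.1, 17 and 25 CPM at 4 dpi. *Fgfrl1* kept its call only without 2 dpi replicate 2 (adjusted p up to 0.175 in the 5 other fits that left out 1 library). Of 31 WNT genes, *Sfrp2*, *Nkd2* and *Mdk* rose (9.68%, median 0.18). *Sfrp2*, a secreted WNT modulator, was at 35.9, 56.7 and 41.5 CPM at 2 dpi and 120.2, 139 and 186 CPM at 4 dpi (log2 fold change 1.73, SE 0.27, edgeR adjusted p = 0.0019), kept its call without any 1 library and shares exon sequence with an antisense gene. *Nkd2*, an inhibitor of WNT signalling inside the cell, was at 17.1, 19.9 and 27.1 CPM at 2 dpi and 59, 66.7 and 52 CPM at 4 dpi (log2 fold change 1.47, SE 0.26, edgeR adjusted p = 0.0046). *Nkd2* lost its call without 2 dpi replicate 1 (adjusted p = 0.0539). *Sfrp1*, the member with the most counts, was at 157, 228 and 255 CPM at 2 dpi and 421, 375 and 387 CPM at 4 dpi (log2 fold change 0.89, adjusted p = 0.0723). Of 43 TGF-β, activin and BMP genes, *Tgfb3* and *Ltbp2* rose and *Tgfbr3* fell (6.98%, median 0.01). *Tgfb3*, a TGF-β ligand, was at 42.5, 52.7 and 58.1 CPM at 2 dpi and 117, 116 and 127 CPM at 4 dpi (log2 fold change 1.23, SE 0.22, edgeR adjusted p = 0.0051). *Tgfb3* lost its call without 2 dpi replicate 1 (adjusted p = 0.0611). *Tgfbr3*, the co-receptor betaglycan, was at 128, 168 and 127 CPM at 2 dpi and 61.6, 51.7 and 49.9 CPM at 4 dpi (log2 fold change -1.38, SE 0.27, edgeR adjusted p = 0.01). *Tgfbr3* lost its call without 2 dpi replicate 2 (adjusted p = 0.0673) and without 4 dpi replicate 2 (adjusted p = 0.0756). *Fstl1* and *Igfbp7*, the members of the TGF-β and growth factor lists with the most counts, had adjusted p of 0.53 and 0.972.

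Markers of resting fibroblasts were lower by direction in 32 of 37 cases, with a median log2 fold change of -0.64, and 14 were lower and 1 higher at an unadjusted p under 0.05. The direction turned in the fit with a term for the sex-linked pattern, where the median was 0.37 and 26 of 37 lay above 0. *Hsd11b1* alone fell by the adjusted test (2.7%, against 1.15% of all genes). *Htra3*, a secreted serine protease, was at 2401, 2778 and 2553 CPM at 2 dpi and 890.1, 812 and 1444 CPM at 4 dpi (log2 fold change -1.3, adjusted p = 0.0975), and *Pdgfra*, the receptor that marks fibroblasts, at 300, 304 and 252 CPM at 2 dpi and 170, 143 and 178 CPM at 4 dpi (log2 fold change -0.8, adjusted p = 0.16). *Mgp*, an inhibitor of calcification and the member with the most counts, was at 18488, 28893 and 16879 CPM at 2 dpi and 16992, 15882 and 10722 CPM at 4 dpi and overlapped. The list mean was 8.63, 8.93 and 8.78 log2 CPM at 2 dpi and 8.01, 7.97 and 8.54 at 4 dpi, with replicate 3 nearest to 2 dpi and the highest 4 dpi library in 29 of 37 genes. Without it the median was -0.89 and *Hsd11b1*, *Htra3* and *Lpl* were called.

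Other lists had few or no calls. Of 33 glycolysis and hypoxia genes, none passed in edgeR or DESeq2, 28 were below 0 (median -0.33), and 8 were lower and none higher at an unadjusted p under 0.05. *Mif*, the member with the most counts, was at 700 ± 202 CPM (SD, n = 3) and 632 ± 224 CPM (SD, n = 3) (adjusted p = 0.962). Of 28 antioxidant, metallothionein and iron genes, none passed in edgeR (median -0.19, 3 higher and 6 lower at an unadjusted p under 0.05), and DESeq2 called 1 higher and 5 lower. *Ftl1*, the ferritin light chain and the member with the most counts, was at 5869 ± 1005 CPM (SD, n = 3) and 4387 ± 368 CPM (SD, n = 3) (adjusted p = 0.764). Of 43 genes of folding and secretion in the endoplasmic reticulum, *Pdia5*, a disulphide isomerase, rose (2.33%, median 0.15), at 35.9, 33.6 and 34.5 CPM at 2 dpi and 84.1, 78.6 and 56.6 CPM at 4 dpi (log2 fold change 1.08, SE 0.23, edgeR adjusted p = 0.0219). *Pdia5* kept its call only without 4 dpi replicate 3 (adjusted p up to 0.122 in the 5 other fits that left out 1 library). *P4hb*, the member with the most counts, had an adjusted p of 0.719. Of 31 immediate early and dissociation response genes, none passed in edgeR (median -0.15, and 0.23 with the sex-linked term, 2 in each direction at an unadjusted p under 0.05), and DESeq2 called 1. *Fos*, the member with the most counts, was at 2454, 1747 and 1575 CPM at 2 dpi and 1144, 1349 and 2077 CPM at 4 dpi. Of 40 ribosome biogenesis genes, none passed in edgeR or DESeq2 and none had an unadjusted p under 0.05 (median -0.1). *Npm1*, the member with the most counts, was at 553 ± 15.6 CPM (SD, n = 3) and 553 ± 93.7 CPM (SD, n = 3).

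The study groups genes into dynamics D1 and D2 along trajectories of *Postn*+ CFs in its own single-cell data, so these lists, like the RCF markers, were chosen by the study in such cells. The lists used here are the 43 and 57 genes it gives by name, which may be a part of each dynamic. Of 42 D1 genes tested, 6 rose and none fell (14.3%, median 0.71). These were *Ccn4*, *Csrp2*, *Nkd2*, *P4ha3*, *Palld* and *Tgfb3*. Of 55 D2 genes, 8 rose and none fell (14.5%, median 0.45). Beside *Col11a1*, *Col12a1*, *Col14a1*, *Fn1*, *Ltbp2* and *Thbs4* these were *Runx1* and *Tcea3*. *Tcea3*, a transcription elongation factor, was at 17.8, 18 and 14.7 CPM at 2 dpi and 32.7, 35.8 and 45 CPM at 4 dpi (log2 fold change 1.17, SE 0.24, edgeR adjusted p = 0.0177). *Tcea3* kept its call only without 4 dpi replicate 1 (adjusted p up to 0.0815 in the 5 other fits that left out 1 library). *Runx1*, a transcription factor known from blood development and from activated fibroblasts, was at 36, 19.9 and 29.8 CPM at 2 dpi and 102, 119 and 70.2 CPM at 4 dpi (log2 fold change 1.77, SE 0.27, edgeR adjusted p = 0.0014), kept its call without any 1 library and shares exon sequence with an antisense gene. DESeq2 called 14 of D1 and 15 of D2, all higher.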

How the data were processed

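Cells were sorted from infarcted hearts and sequenced by bulk MARS-seq. Reads were demultiplexed with bcl2fastq 1.2.4, aligned to mm10 with STAR and assigned to Ensembl genes with featureCounts, as the study's methods and submitters' notes state. The authors deposited raw counts per gene, not normalized, for 17 libraries and 31053 genes, and all columns were mapped by name. Groups follow the labels. For the 5 dpi library the replicate number differs between its title and description, and the title was used.

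Counts were analysed with edgeR 4.0.16 in R 4.3.3. Genes reaching 10 counts in 3 or more libraries (14030, holding at least 99.96% of each library) were fitted together in all 17 libraries with day as a factor of 6 levels after TMM scaling, the 4 dpi against 2 dpi contrast was tested by the quasi-likelihood F-test (two-sided), and p-values were adjusted by Benjamini and Hochberg over all genes tested. A call is an adjusted p under 0.05. The 13558 autosomal genes are described. X- and Y-linked genes are not, because the days differ in them. SE is the log2 fold change over the square root of F. Log2 CPM values use a prior count of 2. A level of 3 counts was 0.16 to 0.36 CPM per library, and such floors cover counting error only. Mitochondrial genes held 1.22% to 2.04% of the counts.

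Named genes were the 12 largest rises and 12 largest falls among called genes that averaged 100 counts or more and did not overlap, up to 4 called members per list and direction, the member of each list with the most counts, and defining markers. Genes given outside this rule, namely the remaining called members and genes without a call that are neither, were chosen after their values were seen. Members, lists and tests were chosen with earlier results of these data known. Positions are those of GENCODE vM21 (GRCm38), matched for 31011 genes. Promoters are RefSeq windows of GRCm38.p6. In counts drawn for testing, with 200 of 13679 genes changed, 71% of the genes changed by 2 on the log2 scale and 11% of those changed by 1 were called, with 3 unchanged genes. The changed genes were drawn only among those with higher counts, the other days shared a single mean, and no library was set apart. These shares therefore do not cover low genes or a library that stands apart. Alternatives were DESeq2 1.42.0, other scalings and filters, a robust spread, a replicate block, fewer days, a minimum change, a term for the sex-linked pattern and each library left out. Figures were drawn with matplotlib 3.10.9.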

Additional observations from a re-analysis of the deposited data

Results flagged for a closer look

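*Xist*, on the X chromosome and outside the autosomal comparison, was at 141.55 CPM or more in each 4 dpi library and at 2.85 CPM or less in each 2 dpi library. It is listed here because the signal lies in genes that the comparison leaves out and separates the 2 days completely, so that day and sex-linked pattern cannot be told apart.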

How the results depend on the processing

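The 156 calls (69.2% higher) stayed within 1.5 times under other scalings, the stricter filter, a robust spread, fewer days and the replicate block, which gave 140 calls. Replicate numbers did not pair the libraries (correlations of deviations of 0.009, -0.044 and 0.015). DESeq2 called 407 and no filter on low counts 460, of which 156 and 154 were among the main calls. A minimum log2 change of 1 left 28 calls (78.6% higher). A term for the sex-linked pattern gave 15 calls, of which 8 were among the 156, all with a fitted log2 fold change above 0. This term gave 988 genes at an unadjusted p under 0.05, and *Ccl9* a log2 fold change of -0.13, a reversed sign. It also turned the median of the resting fibroblast list from -0.64 to 0.37, of the leukocyte markers from 1.63 to -1.01, of the complement list from -0.14 to 0.48 and of the immediate early list from -0.15 to 0.23. Leaving out 1 library gave 55 to 186 calls. The share higher was 82.1% without 2 dpi replicate 2, 80.0% and 85.5% without 4 dpi replicates 1 and 2. Where fewer libraries, fewer genes or an added term do not account for a change by construction, the cause was not tested. The total of 4 dpi replicate 3, 8336263, limits what can be seen in low genes.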

Other observations

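Genes known to be induced by glucocorticoids were lower by direction at 4 dpi. This list was composed after values were seen, in part because members had fallen, so its counts are a description without a test. Of 19 tested, 6 fell (31.6%, against 1.15% of all genes), namely *Fmo2*, *Glul*, *Irak3*, *Klf15*, *Map3k6* and *Zbtb16*, and none rose. All 19 lay below 0, with a median log2 fold change of -1.37. In the fit with a term for the sex-linked pattern none was called, the median was -1.28 and 2 lay above 0. The list mean was 7.21, 7.06 and 6.0 log2 CPM at 2 dpi and 5.34, 4.95 and 5.19 at 4 dpi, so that 2 dpi replicate 3 was nearest to 4 dpi, and the 5 dpi library stood at 5.37. *Glul*, glutamine synthetase, was at 84.2, 75 and 40.1 CPM at 2 dpi and 18, 15.9 and 15.7 CPM at 4 dpi (log2 fold change -2.0, SE 0.31, edgeR adjusted p = 0.0019). *Klf15*, a transcription factor induced by glucocorticoids, was at 33.4, 37.4 and 17.6 CPM at 2 dpi and 5.58, 5.31 and 8.01 CPM at 4 dpi (log2 fold change -2.23, SE 0.52, edgeR adjusted p = 0.0375). *Klf15* kept its call only without 2 dpi replicate 3 (adjusted p up to 0.194 in the 5 other fits that left out 1 library).

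Of 20 genes of tendon and cartilage matrix and their regulators, also composed after values were seen, 8 rose and *Prg4* fell, with a median of 1.52. This was 45.0%, against 1.15% of all genes, and is a description of a list composed in this way. In the fit with a term for the sex-linked pattern none was called, and the median was 3.03. *Sox9*, the transcription factor of cartilage, was at 107, 108 and 95 CPM at 2 dpi and 157, 149.5 and 118 CPM at 4 dpi (adjusted p = 0.45). Of 13 genes of an imprinted network tested, composed likewise, *H19* and *Mest* rose (15.4%, against 1.15% of all genes, median 0.39). The list was split by direction, with 8 above 0 and 5 below. At an unadjusted p under 0.05 in edgeR, 4 were higher and 3 lower.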
